A study of Rattus norvegicus with 8 samples.

Results

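The transcripts described here are those of the proteasome: its subunits, its activators and its assembly factors. They were taken as the probe sets annotated with exactly 1 gene symbol that begins with Psm, then a letter from a to g, then a digit. Of 28826 probe sets, 54 met this rule. They stood for 47 of 14497 named genes, and the probe set with the highest mean over all arrays represented each gene. The 47 genes comprised 6 alpha and 7 constitutive beta subunits of the core particle, 3 induced beta subunits, 6 ATPases and 11 other subunits of the regulatory cap, 4 activators and 6 assembly factors. Psmb11, a core subunit known from the thymus, and Psma3l, a close copy of Psma3, stood apart from these roles. A further 2 symbols fit the pattern and name no subunit, Psmc3ip and Psme3ip1. The single probe set annotated with both Psma3l and Psma3 was not counted, and Psma3, Psma8, Psmf1 and Psmg3 were not analysed here.

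The samples were left ventricles of female rats in late pregnancy whose hearts had undergone ischemia (loss of blood supply) and reperfusion, labelled I/R. In 5 samples reperfusion came with the treatment labelled ILPD, and in 3 with a placebo, which the design text calls vehicle. The design text gives 1 bolus of 5 mg/kg and abbreviates the treatment as ITLD, which is assumed here to be ILPD; the title of the series names Intralipid, a lipid emulsion. Both groups shared the injury, and uninjured hearts were not analysed here. Neither strain nor age is stated in the labels. Samples are numbered there without mention of separate animals, so the spread behind each p-value is that of the samples and may in part be technical.

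The proteasome is the protease that degrades proteins tagged with ubiquitin. Its barrel-shaped core, the 20S particle, has outer rings of alpha subunits, which gate the entry, and inner rings of beta subunits, of which Psmb5, Psmb6 and Psmb7 carry the active sites. The 19S cap binds ubiquitin chains, removes them and unfolds the substrate with a ring of ATPases. Interferon gamma induces Psmb8, Psmb9 and Psmb10, which replace the constitutive active subunits in the immunoproteasome, and the activator subunits Psme1 and Psme2. In heart muscle the proteasome clears damaged and misfolded proteins, and its activity is known to be impaired by ischemia and reperfusion.

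No proteasome gene passed the test for a difference between ILPD and placebo hearts. All values are log2 probe set values, and a difference is ILPD minus placebo. Under limma, with p-values adjusted across every probe set (Benjamini-Hochberg), 0 of the 47 genes had an adjusted p under 0.05, whereas 2.81% of all probe sets did. These were 1.96% called higher and 0.857% called lower in ILPD hearts. Psmb7 came closest (adjusted p = 0.0823). At an unadjusted p under 0.05, 0 genes were higher and 4 were lower in ILPD hearts (Psmb7, Psmd1, Psme1 and Psme3ip1). This was 8.51% of the genes, against 18.3% of all probe sets in either direction and 7.01% lower. The 95% interval of the difference lay inside 1.5-fold in either direction (0.58 on the log2 scale) for all 47 genes as deposited, and for at least 45 in each alternative processing run; Psmb9 and Psmb4 were the genes whose interval then reached further.

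**Figure D1:**
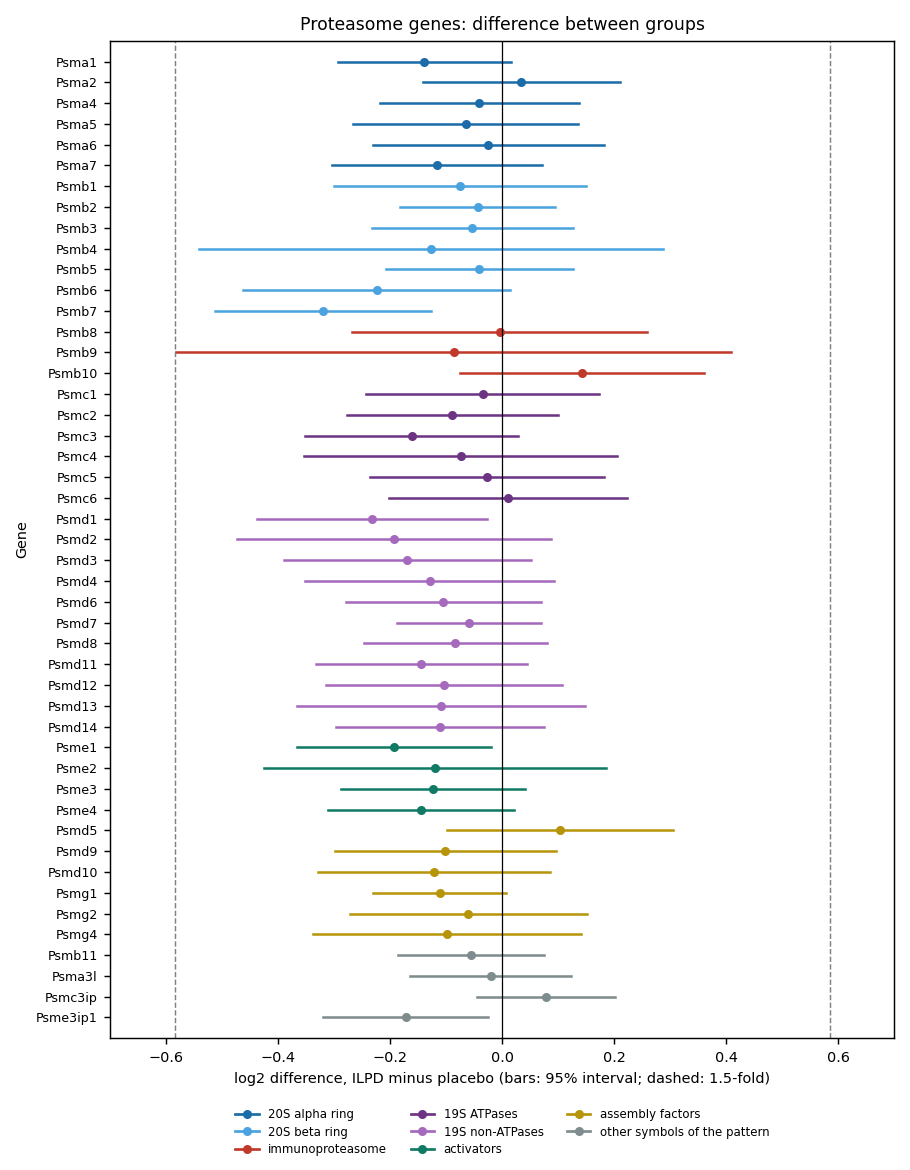
Difference between ILPD and placebo hearts for each of the 47 genes (horizontal axis, log2 units; points are limma estimates from 5 ILPD and 3 placebo arrays, bars are 95% intervals, dashed lines mark 1.5-fold, colours mark roles). No interval crosses a dashed line, and the estimates run from -0.32 for Psmb7 to 0.14 for Psmb10.

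Most estimates were slightly negative in the values as deposited. The median difference was -0.10 over the 47 genes and 0.02 over all probe sets, and 42 of the 47 were negative, 89.4% against 41.5% of all probe sets. The 5 positive genes were Psma2, Psmb10, Psmc6, Psmd5 and Psmc3ip. Over all probe sets the difference fell with brightness from a mean log2 value of 7 upward. Their median difference was 0.06 between 7 and 8, 0.02 between 8 and 9, and -0.05 between 9 and 10. It was -0.10 between 10 and 11, and -0.13 between 11 and 12. Negative differences made up 45.1% of all probe sets between 8 and 9, and 61.8% between 9 and 10. They made up 72.6% between 10 and 11, and 81.2% between 11 and 12. From 8 to 12, these intervals held 7, 12, 13 and 12 proteasome genes, with medians of -0.06, -0.11, -0.08 and -0.13. The part of brightness in the tilt of these genes was not tested. After cyclic loess normalization, which removes such a trend between arrays, 27 of the 47 genes were negative and their median was -0.02. It was -0.04 after quantile normalization, and -0.06 as deposited without ILPD array 4.

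**Figure D2:**
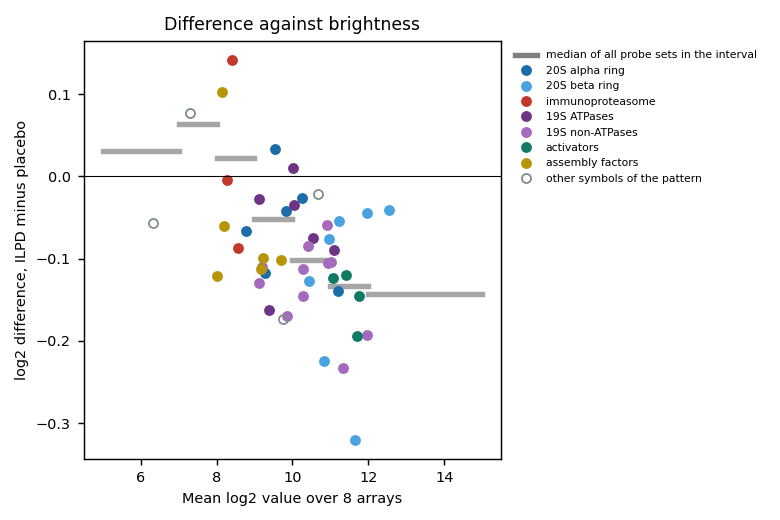
Difference between ILPD and placebo (vertical axis, log2 units) against the mean log2 value over all 8 arrays (horizontal axis) for the 47 genes, coloured by role, with grey bars for the median of all probe sets in each interval of brightness. The grey bars step down from 0.06 at a mean of 7 to 8 to -0.14 above 12, and Psmb7 is the lowest gene at -0.32.

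The alpha subunits form the gated outer rings. Of 6 measured, 0 passed the test, and their differences ran from -0.14 to 0.03 with a median of -0.05, which was 0.0018 after cyclic loess and -0.01 after quantile normalization. The lowest belonged to Psma1, which had 11.30, 11.17, 11.12, 11.01 and 11.12 in the 5 ILPD hearts and 11.32, 11.22 and 11.32 in the 3 placebo hearts. The groups overlapped, and the difference of -0.14 (SE 0.07) had a limma adjusted p of 0.329. Psma2 had the highest, with 9.74, 9.57, 9.46, 9.52 and 9.46 in ILPD and 9.64, 9.48 and 9.43 in placebo, a difference of 0.03 (SE 0.08, limma adjusted p = 0.875). Psma4, Psma5, Psma6 and Psma7 lay between these. A much dimmer second probe set of Psma6, with a mean of 6.61, gave 0.22 and the brighter one -0.03.

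Of the 7 constitutive beta subunits 0 passed, and all 7 differences were negative as deposited, with a median of -0.08 that turned to 0.04 after cyclic loess and 0.03 after quantile normalization. Psmb7, which carries the trypsin-like active site, was the lowest of all members. Its values were 11.71, 11.60, 11.51, 11.28 and 11.52 in ILPD hearts, against 11.85, 11.80 and 11.88 in placebo hearts. Every ILPD array lay below every placebo array, and the placebo values were tightly grouped (11.84 ± 0.04, SD, n = 3, against 11.52 ± 0.16 for ILPD, SD, n = 5). The difference was -0.32 (SE 0.09, 95% interval -0.51 to -0.13), with ILPD at 0.801 of the placebo level and a limma adjusted p of 0.0823. At the threshold of 0.05 it passed in 1 of the 15 alternatives run for it, without ILPD array 1 (limma adjusted p = 0.0470), and the adjusted p reached 0.227 after cyclic loess, where the difference was -0.19. Groups that do not overlap with ILPD lower were also seen for Psme3, Psmg1 and Psme3ip1, which with Psmb7 made 4 genes or 8.51% of the 47, against 4.42% of all probe sets; 0 genes had all ILPD values higher, against 7.95%.

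Psmb6, the caspase-like active subunit, had 11.05, 10.81, 10.66, 10.61 and 10.66 in ILPD and 11.04, 10.81 and 11.10 in placebo. ILPD array 1 matched the placebo values, while arrays 3, 4 and 5 fell below all of them; the difference was -0.22 (SE 0.11, limma adjusted p = 0.305), and -0.12 in a second probe set. Psmb5, the chymotrypsin-like active subunit and target of the drug bortezomib, had 12.50, 12.43, 12.52, 12.50 and 12.67 in ILPD and 12.65, 12.41 and 12.64 in placebo. These groups overlapped almost fully (-0.04, SE 0.07, limma adjusted p = 0.832), and the estimate was 0.12 after cyclic loess and 0.11 after quantile normalization. The other 4 members, Psmb1 to Psmb4, are structural and ranged from -0.13 to -0.04. Among them Psmb4, singled out after its values were seen, spread most, from 10.05 to 10.81 in ILPD and from 10.22 to 10.66 in placebo.

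The induced subunits of the immunoproteasome did not differ detectably either. Of 3, 0 passed. Psmb8, which replaces Psmb5, had 8.42, 8.20, 7.93, 8.27 and 8.53 in ILPD and 8.30, 8.20 and 8.32 in placebo. The ILPD values lay on both sides of the placebo values, with a difference of -0.0045 (SE 0.12, 95% interval -0.27 to 0.26, limma adjusted p = 0.989). Psmb9, which replaces Psmb6, had 8.70, 8.37, 8.70, 8.33 and 8.60 in ILPD and 8.52, 8.07 and 9.29 in placebo. Placebo array 3 was the highest and placebo array 2 the lowest of all 8 arrays, so that the placebo SD was 0.61 against 0.18 for ILPD. The difference of -0.09 (SE 0.22, 95% interval -0.58 to 0.41, limma adjusted p = 0.888) was the least precise of all members, and it was 0.24 without placebo array 3 and -0.36 without placebo array 2. Psmb10, which replaces Psmb7, had 8.56, 8.39, 8.22, 8.59 and 8.57 in ILPD and 8.41, 8.17 and 8.39 in placebo. Of the ILPD values 3 exceeded all placebo values, and the difference was 0.14 (SE 0.10, limma adjusted p = 0.497).

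**Figure D3:**
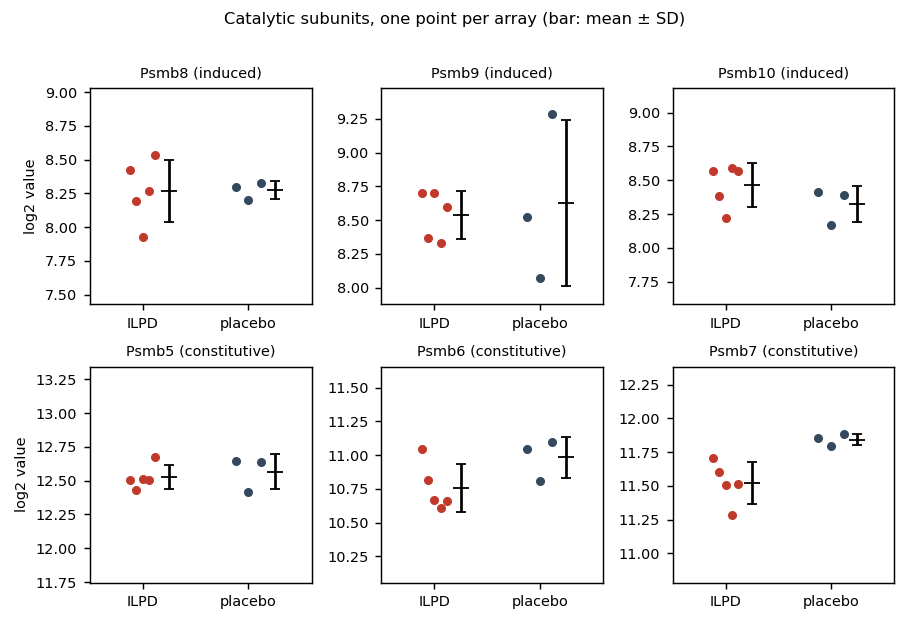
Log2 values of the 3 induced catalytic subunits (upper row) and the constitutive subunits they replace (lower row) in ILPD and placebo hearts, one point per array, with the mean and SD beside them; each vertical axis spans 1.6 log2 units. The groups separate for Psmb7 alone, and 1 placebo array at 9.29 sets the spread of Psmb9.

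Each induced subunit was also set against the one it replaces within each array, as the shift of their log2 difference from its placebo mean. For Psmb10 over Psmb7 the shift was 0.38, 0.30, 0.23, 0.83 and 0.57 in the ILPD arrays, against 0.08, -0.11 and 0.03 in placebo. All 5 ILPD arrays lay above all 3 placebo arrays, with a mean of 0.46 ± 0.24 (SD, n = 5). As deposited, the difference between groups falls with probe set intensity, which is higher for the Psmb7 probe set; its part in this shift was not tested apart from the following values. After cyclic loess the ILPD mean was 0.30 and after quantile normalization 0.29, and the groups then overlapped through ILPD array 3 (0.06 under both). For Psmb8 over Psmb5 the ILPD mean was 0.04 ± 0.20, and for Psmb9 over Psmb6 it was 0.14 ± 0.20 (SD, n = 5 for both). Both means lay within the range of the placebo arrays; the first was -0.16 after cyclic loess and -0.17 after quantile normalization. These shifts combine genes chosen with results known, and they were not tested.

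Promoters of 2 induced and 2 constitutive genes are shown because they hold motifs of different factors known to drive proteasome genes. The sequences are the last 100 bases before the gene start from RefSeq, build GRCr8, 5′ to 3′ on the gene's strand. In the first pair, capitals mark the core of the interferon-stimulated response element, which is GAAA, any 2 bases and GAAA again, and in the second pair that of the antioxidant response element, TGACNNNGC, the kind of site bound by Nfe2l1 when proteasome activity falls.
Psmb10 (chr19:50743293-50743392, minus strand): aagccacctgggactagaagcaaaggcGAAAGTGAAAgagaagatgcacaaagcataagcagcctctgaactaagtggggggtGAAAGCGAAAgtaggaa
Psme2 (chr15:33052752-33052851, minus strand): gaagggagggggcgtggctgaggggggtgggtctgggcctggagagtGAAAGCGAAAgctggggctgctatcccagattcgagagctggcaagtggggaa
Psmb5 (chr15:32047380-32047479, minus strand): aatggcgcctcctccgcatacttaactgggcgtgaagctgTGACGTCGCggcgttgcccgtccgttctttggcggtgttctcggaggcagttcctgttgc
Psmb6 (chr10:55737788-55737887, plus strand): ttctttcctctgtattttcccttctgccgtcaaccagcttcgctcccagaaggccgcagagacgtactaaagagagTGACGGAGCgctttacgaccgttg

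These motifs were searched on both strands in the 250 bases before the start. Of the 47 genes 41 had an entry; Psma3l, Psma7, Psmb11, Psmd6, Psmd12 and Psmd14 had none in the table. The interferon core was found for 5 genes, Psmb10 (at 2 places), Psme2, Psma4, Psmb3 and Psmd7, 12.2% of those with an entry against 3.41% of all 33469 windows. It was not found for the interferon-induced Psmb8, Psmb9 and Psme1, which had an entry. The antioxidant core was found for 6, Psmb2, Psmb5, Psmb6, Psmd1, Psmd9 and Psme4, 14.6% against 10.1%. A heat shock element core, which is GAA, TTC and GAA with any 2 bases between them, was found for 0 of the 41, against 0.663% of all windows. Among the 5 with the interferon core the differences ran from -0.12 for Psme2 to 0.14 for Psmb10, and among the 6 with the antioxidant core from -0.23 for Psmd1 to -0.04 for Psmb5.

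The ATPases of the 19S cap, Psmc1 to Psmc6, unfold substrates and thread them into the core. Of 6, 0 passed, with differences from -0.16 to 0.01 and a median of -0.05, which was 0.03 after cyclic loess and 0.01 after quantile normalization. Psmc3 was the lowest, with 9.50, 9.38, 9.28, 9.13 and 9.33 in ILPD and 9.48, 9.38 and 9.59 in placebo, a difference of -0.16 (SE 0.09, limma adjusted p = 0.358). Psmc6 was the highest, with 10.11, 10.24, 10.05, 9.90 and 9.79 in ILPD and 10.04, 9.93 and 10.05 in placebo (0.01, SE 0.10, limma adjusted p = 0.969). Its 5 ILPD values enclosed all 3 placebo values.

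The other cap subunits hold the scaffold, the ubiquitin receptors and the deubiquitinase. All 11 had a negative difference as deposited and 0 passed, with a median of -0.11, which was -0.05 after cyclic loess and -0.06 after quantile normalization. Psmd1, a large scaffold subunit that also docks the ubiquitin receptor Adrm1, was the lowest. It had 11.41, 11.36, 11.21, 11.03 and 11.24 in ILPD, against 11.60, 11.34 and 11.51 in placebo. The groups overlapped through placebo array 2, and the difference was -0.23 (SE 0.09, 95% interval -0.44 to -0.03, limma adjusted p = 0.218). Psmd2, the other large scaffold subunit, differed by -0.19 (limma adjusted p = 0.467). The ubiquitin receptor Psmd4 differed by -0.13, and Psmd14, the deubiquitinase that cuts chains off the substrate, by -0.11. Psmd7, the partner of Psmd14, was nearest to 0 (0.05 after cyclic loess), with 11.00, 10.91, 10.88, 10.80 and 10.85 in ILPD and 10.98, 10.95 and 10.91 in placebo (-0.06, SE 0.06, limma adjusted p = 0.650). The remaining 6 ranged from -0.17 for Psmd3 to -0.08 for Psmd8.

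The activators cap the core in place of the 19S particle, without ATPase activity. Of 4, 0 passed, and all 4 had negative differences with a median of -0.13, which was -0.0077 after cyclic loess. Psme1, which with Psme2 forms the interferon-induced PA28 ring, had 11.77, 11.63, 11.53, 11.54 and 11.69 in ILPD and 11.91, 11.68 and 11.89 in placebo. Only placebo array 2 fell among the ILPD values, and the difference was -0.19 (SE 0.08, 95% interval -0.37 to -0.02, limma adjusted p = 0.223). Psme2 had 11.63, 11.48, 11.19, 11.17 and 11.36 in ILPD and 11.44, 11.23 and 11.79 in placebo (-0.12, SE 0.14, limma adjusted p = 0.707), and the estimate was 0.03 without placebo array 3. Placebo array 3 was the highest of the 8 for Psme2 as it was for Psmb9, and for 12 of the 47 genes in all. Placebo array 1 was the highest for 13 of the 47, and ILPD array 1 for 10. Psme3, the nuclear PA28 subunit, had 11.10, 11.10, 11.03, 10.80 and 11.05 in ILPD and 11.11, 11.16 and 11.16 in placebo. All ILPD values were lower, 2 of them narrowly, with a difference of -0.12 (SE 0.07, limma adjusted p = 0.418); a dimmer probe set gave 0.03. Psme4, the large activator PA200, had 11.63, 11.77, 11.67, 11.60 and 11.81 in ILPD and 11.96, 11.86 and 11.71 in placebo (-0.15, SE 0.07, limma adjusted p = 0.342). Second probe sets of Psme1 and Psme2, with means of 7.91 and 11.07, gave -0.08 and -0.03.

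Assembly factors guide the building of the core and the cap and are not part of the finished particle. Psmg1, Psmg2 and Psmg4 act on the core, and Psmd5, Psmd9 and Psmd10 on the base of the cap. Of these 6, 0 passed, with a median of -0.10, which was -0.08 after cyclic loess and -0.11 after quantile normalization. Psmd5, which also holds back cap assembly, had the highest difference, with 8.09, 8.34, 8.15, 8.09 and 8.29 in ILPD and 8.28, 7.94 and 8.05 in placebo (0.10, SE 0.09, limma adjusted p = 0.608). Psmd10, known as gankyrin, had the lowest, with 8.13, 8.12, 7.83, 7.85 and 7.89 in ILPD and 8.01, 8.01 and 8.24 in placebo (-0.12, SE 0.09, limma adjusted p = 0.544). In Psmd10 the first 2 ILPD values lay among the placebo values and the other 3 below them. Psmg1 differed by -0.11 with no overlap between groups (limma adjusted p = 0.306).

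The remaining symbols did not pass the test either. Psmb11 had 6.22, 6.27, 6.34, 6.34 and 6.31 in ILPD and 6.30, 6.30 and 6.45 in placebo (-0.06, SE 0.06, limma adjusted p = 0.673). Psma3l had 10.72, 10.73, 10.66, 10.63 and 10.58 in ILPD and 10.80, 10.67 and 10.58 in placebo (-0.02, SE 0.06, limma adjusted p = 0.909), and its signal may include that of Psma3. The groups overlapped for both genes. Psmc3ip, a factor of meiotic recombination, differed by 0.08 (limma adjusted p = 0.511). It had 7.35, 7.33, 7.35, 7.28 and 7.33 in ILPD and 7.35, 7.18 and 7.22 in placebo. Psme3ip1, a protein that binds Psme3, had 9.80, 9.73, 9.70, 9.54 and 9.61 in ILPD and 9.83, 9.84 and 9.88 in placebo, a difference of -0.17 (SE 0.07, limma adjusted p = 0.204).

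The levels also varied from array to array within the ILPD group. Each gene was centred on its mean over all arrays and the median of the 47 was taken per array. It was 0.10, 0.04, -0.07, -0.19 and -0.09 in the ILPD arrays, against 0.10, -0.02 and 0.10 in placebo. ILPD array 1 thus lay at the level of the upper placebo arrays, and ILPD array 4 lowest. ILPD array 1 or 2 was the highest ILPD array for 38 genes, and ILPD array 4 or 5 the lowest for 38. ILPD array 4 was the lowest of all 8 arrays for 59.6% of the 47 genes, against 34.5% of all probe sets with a mean between 9 and 12. After cyclic loess normalization it was the lowest for 19.1% of the genes, against 11.1% of those probe sets, and after quantile normalization for 25.5% against 13.7%. ILPD array 5 was then the lowest array for 36.2% of the genes after cyclic loess, against 14.5% of those probe sets, and for 29.8% against 12.9% after quantile normalization.

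Other probe sets, with means between 9 and 12 like most of these genes, shared some of this order. Outside that range lay 1 of the 47 genes below 7, 1 between 7 and 8, 7 between 8 and 9, and 1 above 12. Over all 5332 probe sets with a mean between 9 and 12, the same median was -0.0041 in ILPD array 1, -0.12 in ILPD array 4 and -0.01 in ILPD array 5. After cyclic loess normalization those probe sets lay between -0.0028 and 0.0059 in every array. The proteasome genes then still had 0.11, 0.02, -0.01, -0.09 and -0.08 in the ILPD arrays, against 0.04, -0.03 and 0.03 in placebo. ILPD array 1 stayed above ILPD array 4 for 37 of the 47 genes (78.7%, against 51.4% of those probe sets), compared with 44 as deposited (93.6%, against 69.6%). The beta ring had 0.22 in ILPD array 1 and -0.09 in ILPD array 5 after that normalization. Its lowest value was -0.11, in placebo array 2. The ATPases had 0.11 in ILPD array 1 and -0.16 in ILPD array 5. The median of the 3 induced subunits took another course, with 0.14, -0.14, -0.19, 0.03 and 0.14 in ILPD arrays 1 to 5. It was 0.01, -0.21 and 0.07 in placebo. These genes did not share one course. As deposited, the highest ILPD array was 5 for Psmb8, 1 for Psmb9 and 4 for Psmb10. The lowest was 3 for Psmb8 and Psmb10, and 4 for Psmb9. No test was made of these array patterns, since they were noticed in these values.

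**Figure D4:**
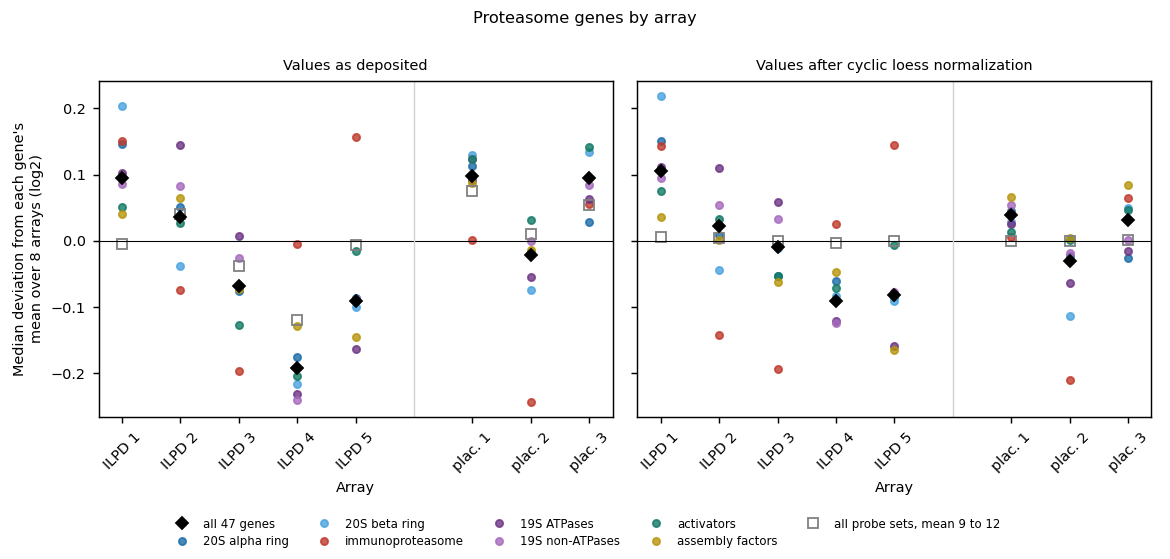
Median deviation of the genes of each role from their own means over 8 arrays (vertical axis, log2 units), for each ILPD and placebo array (horizontal axis), as deposited on the left and after cyclic loess normalization on the right; black diamonds are all 47 genes and open squares all probe sets with a mean of 9 to 12. The black diamonds span 0.10 to -0.19 over the ILPD arrays on the left and 0.11 to -0.09 on the right, where the open squares stay between -0.0028 and 0.0059.

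Partners of the proteasome whose symbols lie outside the pattern did include genes called lower. Of 21 measured, 0 were called higher and 3 lower, against 1.96% and 0.857% of all probe sets. As deposited 20 of the 21 differences were negative, with a median of -0.11. The median brightness of this list was 10.30, and all probe sets with a mean between 10 and 11 had a median difference of -0.10. Ubqln1, a shuttle that carries ubiquitinated proteins to the proteasome, had 10.24, 10.26, 10.18, 10.07 and 10.27 in ILPD hearts and 10.72, 10.59 and 10.73 in placebo hearts. The groups were well apart, with a difference of -0.48 (SE 0.06, limma adjusted p = 0.00688) that passed in all 14 alternatives run for it (adjusted p up to 0.0494). Ubqln4, of the same family, had 9.39, 9.47, 9.49, 9.32 and 9.53 in ILPD and 9.76, 9.95 and 9.80 in placebo (-0.39, SE 0.07, limma adjusted p = 0.0183). Its groups did not overlap. It passed in 11 of the 14 alternatives run for it. Leaving out placebo array 2 or placebo array 3 raised the limma adjusted p to 0.0807 or 0.0610. Zfand2a, an arsenite- and heat-inducible protein that binds the proteasome, had 8.81, 9.19, 9.04, 9.34 and 9.28 in ILPD and 9.55, 10.32 and 10.50 in placebo. The ILPD values were all lower and the placebo values widely spread. The difference was -0.99 (SE 0.20, limma adjusted p = 0.0320), and the call was lost in 7 of 14 alternatives: both normalizations, and without ILPD array 2, 3 or 4 or placebo array 2 or 3. The adjusted p reached 0.126 without placebo array 2, where the difference was -0.89.

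Nfe2l1, the transcription factor that induces proteasome genes, differed by -0.18 (limma adjusted p = 0.368), and Vcp, the ATPase that extracts proteins for degradation, by -0.21 (limma adjusted p = 0.249). Pomp, the core assembly factor, and Sem1, a small cap subunit, were singled out after their values were seen, for their spread over the ILPD arrays. Pomp had 10.77, 10.56, 10.18, 9.93 and 10.00 in ILPD and 10.53, 10.45 and 10.63 in placebo (-0.25, SE 0.18, limma adjusted p = 0.508). Sem1 had 9.77, 9.63, 9.11, 9.02 and 8.76 in ILPD and 9.47, 9.39 and 9.39 in placebo (-0.16, SE 0.20, limma adjusted p = 0.743). For both genes ILPD array 1 was above all placebo arrays and ILPD arrays 3 to 5 below all of them.

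Other steps of the pathway gave no calls. Of 11 genes for ubiquitin activation and conjugation 0 passed, with a median of -0.12. The largest difference there was 0.25 for Uba6, the second activating enzyme (limma adjusted p = 0.140), which had 8.70, 8.86, 8.80, 8.54 and 8.68 in ILPD and 8.57, 8.48 and 8.34 in placebo. Of the ILPD values 1, in array 4, fell below the highest placebo value. The other 10 of these 11 genes were negative as deposited, and 4 of them had all ILPD values lower (36.4%, against 4.42% of all probe sets). Uba1, also an activating enzyme, was among these, at -0.24 (limma adjusted p = 0.132). The median brightness of the list was 11.16, and all probe sets with a mean between 11 and 12 had a median difference of -0.13. Of 12 ubiquitin ligases of heart and muscle 0 passed, with a median of -0.17. The largest was -0.36 for Asb2 (SE 0.12, limma adjusted p = 0.141), which had 11.08, 10.97, 10.78, 10.86 and 11.38 in ILPD and 11.42, 11.38 and 11.33 in placebo; it passed without ILPD array 5 (0.0217). Trim63 and Fbxo32, the ligases MuRF1 and atrogin-1 of muscle wasting, differed by 0.10 and -0.28 (limma adjusted p = 0.784 and 0.222).

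Of 9 genes of interferon-induced antigen processing, a list that holds the peptide transporter, loading and trimming genes with class II genes and interferon regulators, 0 passed, with a median of 0.04. The largest difference was 0.23 for the transcription factor Irf1 (SE 0.09, limma adjusted p = 0.232), with 8.95, 8.94, 8.98, 9.32 and 9.01 in ILPD and 8.93, 8.79 and 8.72 in placebo. Every ILPD value was higher, the first 3 by little. The peptide transporter Tap1 differed by -0.07 (limma adjusted p = 0.791). It was highest in placebo array 3 (8.69), as were Psmb9 and Psme2. That array was the highest for 2 of the 9 genes of this list and for 12 of the 47 proteasome genes. Placebo array 1 was the highest for 13 of the 47. Irf1 was lowest in placebo array 3.

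Heart muscle was plain in the markers, since 10 of 10 listed for ventricular muscle had means between 12.4 and 14.2. This list was not used to tell ventricle from atrium. As deposited, their average lay between 13.54 and 13.69 in ILPD and between 13.71 and 13.75 in placebo, lower for 10 of 10, of which Tnnc1 passed. Of all probe sets with a mean above 12, 90.3% were lower, with a median difference of -0.14, against -0.13 for these markers. The marker lists were not recomputed under other scalings. Neutrophil markers averaged 8.0 to 9.0 in ILPD and 7.5 to 8.1 in placebo, higher for 8 of 8, of which 1 passed. The 4 markers of all leukocytes averaged 8.78 to 9.37 in ILPD and 8.32 to 8.85 in placebo, higher for 4 of 4, of which 0 passed. Leukocytes express the induced subunits strongly, and muscle the constitutive ones. The part of these shifts in the values above was not tested, and in bulk tissue fewer cells of a type and less RNA per cell cannot be told apart. Of 7 T and NK cell markers 1 passed, of 9 monocyte and macrophage markers 1, and of 4 atrial, 2 B cell, 5 endothelial, 6 fibroblast, 5 mural and 2 red cell markers 0. The 4 atrial markers averaged from 8.78 in ILPD array 5 to 10.04 in ILPD array 1, and from 9.29 to 9.79 in placebo. Among them Myl7 ran from 10.00 in ILPD array 5 to 13.18 in placebo array 2. The share of atrial tissue in each sample was not tested.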

How the data were processed

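RNA of left ventricle was biotin-labelled and hybridised to Affymetrix arrays, per the labels' protocols. The authors deposited log2 values for 28826 probe sets on 8 arrays, a scale read from their range. How they were normalized is not stated in the labels, and R 2.14.2 is listed among the tools (per the submitters' processing notes). Without detection values, precision was judged only from the number of arrays and the spread between them. Array medians ran from 7.08 to 7.20. Each ILPD array (lowest median 7.16) lay above all placebo arrays (highest median 7.14). What this offset contributed to the differences was not tested, beyond the runs after quantile and cyclic loess normalization.

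Two-sided tests used limma 3.58.1 under R 4.3.3, fitted to all probe sets without covariates by lmFit and eBayes, with Benjamini-Hochberg adjustment at 0.05. The code of the test was checked on simulated arrays with known changes and independent noise. The simulated arrays held no trend with brightness and no variation shared between genes. That check therefore gives no error rate for these data. Symbols came from the platform annotation. Figures used matplotlib 3.10.9. The members, roles and lists were chosen with earlier results of these data known. Genes given array by array were the active, induced and activator subunits, the extremes of each other role, and the called or most different gene of each companion list, apart from those named as chosen after their values were seen. Alternatives were a trended robust prior, quantile and cyclic loess normalization, a filter on dim probe sets, array weights, a replicate block, averaging probe sets of a gene, a threshold of 0.1, and leaving out each array.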

Additional observations from a re-analysis of the deposited data

Results flagged for a closer look

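In 3 of 53 genes examined, 1 ILPD array stood apart from the other 4 by more than Dixon's 95% value of 0.71 for the gap over the range, where chance flags about 1 in 20. Each time it was ILPD array 4. Psme3 had 10.80 there, against 11.03 to 11.10 in the other ILPD arrays. Psmc3ip had 7.28 there, against 7.33 to 7.35 in the others. Irf1 had 9.32 there, against 8.94 to 9.01 in the others.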

How the results depend on the processing

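Of the proteasome genes, 0 were called higher in every alternative, and 0 were called lower in all but 2: Psmb7 alone (1 gene) without ILPD array 1 and at an adjusted p of 0.1. Leaving out single arrays gave 0 to 1 lower, 172 to 975 calls over all probe sets (811 as deposited), 1 to 4 called companion genes (3 as deposited) and a median of -0.07 to 0.17 for the induced subunits. Over all probe sets there were 484 calls after quantile normalization, 459 with the replicate block and 1756 at 0.1. After cyclic loess 27 genes were negative, and the median of the activators was -0.0077. The sign changed for 15 of the 47 genes after cyclic loess, 12 after quantile normalization and 13 with the replicate block, and 0 of these were called. Among the genes given array by array these were, after cyclic loess Psmb5 (0.12), Psmd7 (0.051), Psme2 (0.0071) and Psma3l (0.081), after quantile normalization Psmb5 (0.11), Psmd7 (0.039), Psma3l (0.072) and Psmc3ip (-0.0019), and with the replicate block Psma3l (0.020). Without single arrays Psma2 ran from -0.014 to 0.097, Psmc6 from -0.044 to 0.067, Psmb8 from -0.070 to 0.081, Psma3l from -0.070 to 0.037, Psmb9 from -0.36 to 0.24 and Psme2 from -0.25 to 0.030. In the replicate block, ILPD arrays 4 and 5 had no placebo array of the same number and so added nothing to the difference. Its values thus compare ILPD arrays 1 to 3 with the 3 placebo arrays. Beyond this, the cause of the sign changes was not tested. The replicate numbers did not pair the arrays (deviations of same-numbered arrays correlated at 0.221, -0.064 and -0.098). The call of Ubqln4 was lost with the replicate block (limma adjusted p = 0.0624). The count of intervals inside 1.5-fold and the normalized shifts of catalytic pairs were added after seeing the data. Without background values, dim genes such as Psmb11 cannot be called measured or absent.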
